A study of Mus musculus with 20 samples.

Results

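A group of 9 genes of secreted matrix glycoproteins was followed in the temporomandibular joint (TMJ) of the mouse, the joint of the lower jaw. They were chosen by name, though with earlier results of these data known, and are 9 of the 54532 genes of the count table. The 9 are the thrombospondins *Thbs1*, *Thbs2*, *Thbs3* and *Thbs4*, the tenascins *Tnc* and *Tnn*, and *Postn*, *Sparc* and *Fn1*, which encode periostin, SPARC and fibronectin. RNA-seq was performed on condylar heads taken with some of the bone under the cartilage, to ask how the deletion of *Loxl2*, a lysyl oxidase that crosslinks collagen and elastin, changes the tissue. All animals, controls included, carried an inducible Cre recombinase (CreERT2) driven by the *Acan* promoter and floxed *Loxl2* alleles (Acan-Cre; *Loxl2* fl/fl). Injections began at 6 months of age, daily for 5 days and then monthly, and tissue was taken 4 months later. The 8 Control libraries came from mice given vehicle and the 12 LOXL2_KO libraries from mice given tamoxifen at 75 mg/kg, so tamoxifen and the deletion cannot be told apart. The methods give as many mice of both sexes as there are libraries, but no source used here ties each library to 1 mouse, so p-values measure the spread between these libraries.

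Matricellular proteins are secreted into the matrix but serve mainly to tune how cells respond to it. They bind integrins and other receptors, collagens and growth factors, and many are known to be made during development, repair and mechanical loading. Thrombospondins 1 and 2 form trimers, and thrombospondin 1 can activate latent TGF-β, while thrombospondins 3 and 4 form pentamers. Tenascin C is a large multi-armed glycoprotein of tendon, perichondrium and injured tissue, tenascin N (also called tenascin W) is found mainly around bone and its precursors, periostin marks the periosteum and periodontal ligament, SPARC (osteonectin) is an abundant collagen-binding protein of bone, and fibronectin is the fibrillar glycoprotein on which other matrix proteins assemble.

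The targeted gene, *Loxl2*, showed no decrease in the group labelled knockout. Its level in CPM (read counts relative to the scaled library size) was lowest at 16, median 70.3 and highest at 103 in control, and 28.8, 110 and 126 in the libraries labelled knockout. Between the groups it differed by 0.64 ± 0.28 (SE) on the log2 scale (adjusted p = 0.101). The mean log2 CPM was 0.77 higher in the libraries labelled knockout (exact permutation p = 0.0271, not adjusted). Of these 12 libraries, 11 were above the control median, and replicate 12 was lowest. The counts of *Loxl2* cover the whole gene, and the part between the loxP sites was not examined. Groups are therefore named below by their labels only, as control and as labelled knockout. Library totals ran from 11153820 to 27045668 counts. Control replicates 6 and 8 stood apart from the other control libraries. Their mean log2 CPM over 12 chondrocyte markers was 1.05 and -0.45, against 2.95 to 3.88 in the other 6 control libraries. Among the libraries labelled knockout the same mean was 0.97 in replicate 5, 1.93 in replicate 4 and 2.06 in replicate 7, and 3.06 to 4.86 in the rest. Control replicates 6 and 8 were not low in chondrocyte markers alone. They also had the lowest control means for osteoblast and osteocyte markers (4.97 and 3.88) and for tendon and fibroblast markers (4.89 and 4.6). Each of the 9 genes had its lowest control level in one of these libraries (6 in replicate 8 and 3 in replicate 6). Of the markers of the sampled cell types, 9 of the 12 chondrocyte genes passed the filter on low counts, and *Matn1* had at most 3 counts in every library. *Acta1*, *Ckm* and 10 further skeletal muscle genes together ran from 52908 to 193017 CPM in control and from 37296 to 97330 CPM in the libraries labelled knockout, so every library held muscle RNA. In whole tissue, fewer cells of a type and less RNA per cell cannot be told apart.

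All 9 genes passed the filter, with 207 (*Thbs3*) to 271859 (*Sparc*) counts in a library, and 5 of them rose: *Thbs2*, *Thbs4*, *Tnc*, *Postn* and *Sparc*. None fell. The share of all 15984 tested genes that changed was 23.0% (1918 higher, 12.0%, and 1755 lower). The fold change was positive for all 9, with a median of 0.88 on the log2 scale, beside a median of -0.018 over all tested genes. The same 5 were called in each of the 20 fits that left out 1 library, and in the fit without control replicates 6 and 8. No gene of the 9 had groups that were fully apart, as was true of 0.3% of all tested genes. *Thbs4* came nearest, with 7 of 8 control libraries below every library labelled knockout.

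The sequence before the transcription start of 4 of the genes that rose is shown to compare what lies upstream of genes of different families that moved in one direction. Each is the 200 bases before the start annotated by RefSeq on GRCm38.p6, read 5′ to 3′ on the strand of the gene. Capitals mark matches, on either strand, to the TATA box (TATAAA), the GC box (GGGCGG), the CCAAT box (CCAAT), the AP-1 motif (TGANTCA) or the TEAD motif (CATTCC). The stretches lie at chr17:14694263-14694462 (minus strand) for *Thbs2*, chr13:92794819-92795018 (minus) for *Thbs4*, chr4:64047016-64047215 (minus) for *Tnc* and chr3:54360907-54361106 (plus) for *Postn*.
Thbs2: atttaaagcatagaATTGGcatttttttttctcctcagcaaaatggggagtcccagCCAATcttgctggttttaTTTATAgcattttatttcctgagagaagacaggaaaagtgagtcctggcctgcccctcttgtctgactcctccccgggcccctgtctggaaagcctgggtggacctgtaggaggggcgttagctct
Thbs4: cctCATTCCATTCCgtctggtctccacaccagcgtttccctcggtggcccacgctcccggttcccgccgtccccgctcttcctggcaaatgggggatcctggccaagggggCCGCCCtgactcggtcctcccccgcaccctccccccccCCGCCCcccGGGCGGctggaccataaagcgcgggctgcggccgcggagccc
Tnc: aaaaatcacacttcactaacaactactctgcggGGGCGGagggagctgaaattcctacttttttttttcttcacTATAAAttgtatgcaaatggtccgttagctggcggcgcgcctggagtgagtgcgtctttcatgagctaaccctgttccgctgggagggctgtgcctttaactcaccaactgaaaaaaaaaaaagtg
Postn: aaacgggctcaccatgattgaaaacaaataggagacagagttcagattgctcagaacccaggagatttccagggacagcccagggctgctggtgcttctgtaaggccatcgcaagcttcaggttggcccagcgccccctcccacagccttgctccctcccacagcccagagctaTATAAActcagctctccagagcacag

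Over the longer window from 250 bases before to 50 after the start, RefSeq entries were matched for 7 of the 9 genes and not for *Thbs1* and *Fn1*. TATAAA was held by *Thbs2*, *Tnc* and *Postn*, and by 13.6% of all 32851 promoter windows. In *Postn* it began 26 bases before the start, and in *Thbs2* and *Tnc* 126 bases before it. GGGCGG was held by *Thbs3*, *Thbs4* and *Tnc* (35.7% of all windows), with 3 copies in *Thbs4*. CCAAT was held by *Thbs2*, *Thbs3* and *Tnn* (37.4%), and by *Postn* only at its other annotated start. CATTCC, the letters TEAD factors are known to bind, was held by *Thbs4*, in 2 copies that overlap by 1 base, and by *Tnn* (14.7%). TGANTCA, the AP-1 motif, was held by none of the 7 (7.81% of all windows). The *Sparc* window held none of the 5 motifs, and its stretch is not shown because the RefSeq start lies 3103 bases inside the annotated gene. No motif was shared by all the genes that rose, and a match of letters is not a measured binding site.

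Of the thrombospondins, *Thbs2* and *Thbs4* passed the test. *Thbs2* (chromosome 17, 14665500 to 14694235, minus strand) encodes the trimeric thrombospondin known for limiting vessel growth and shaping collagen fibrils. In control its level was lowest at 31.8, median 65.6 and highest at 102 CPM, and in the libraries labelled knockout 67.4, 126 and 192 CPM. Every library labelled knockout was above the control median and 8 of 12 were above every control library. *Thbs2* rose 1.96-fold, by 0.97 ± 0.22 (SE) on the log2 scale (adjusted p = 0.00479).

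*Thbs4* (chromosome 13, 92751590 to 92794818, minus strand), a pentameric thrombospondin of tendon, muscle and other loaded tissues, was the most abundant of the 4 thrombospondins followed here. Its control libraries ran from 171 through a median of 301 to 431 CPM, and the libraries labelled knockout from 371 through 501 to 905 CPM. The overlap came from control replicate 3, the highest control library at 431 CPM. *Thbs4* rose 1.84-fold, by 0.88 ± 0.19 (SE) on the log2 scale (adjusted p = 0.00387).

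*Thbs3* (chromosome 3, 89215180 to 89226837, plus strand), another pentameric family member expressed in the skeleton, was at 15.8, 67.9 and 96.8 CPM (lowest, median, highest) in control and at 59.8, 103 and 156 CPM in the libraries labelled knockout. The groups overlapped: 7 of 12 libraries labelled knockout were above every control library and 3 were not above the control median. Its log2 fold change of 0.62 ± 0.27 (SE) did not pass the test (adjusted p = 0.101), and was 0.33 ± 0.20 without control replicates 6 and 8. *Thbs3* shares 6.59% of its exon bases with *Mtx1* on the opposite strand, and the use of strand in counting was not given in the sources used here, so its reads and those of *Mtx1* cannot be told apart there. Antisense genes share 3.42% of the exon bases of *Thbs1*, 2.5% of *Fn1* and 2.26% of *Tnc*.

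*Thbs1* (chromosome 2, 118111876 to 118127133, plus strand), the trimer that can activate latent TGF-β, gave 21.1, 86.6 and 129 CPM in control and 41.1, 88.8 and 190 CPM in the libraries labelled knockout. The medians nearly coincided, and 6 of the 12 exceeded the control median. Its log2 fold change was 0.34 ± 0.33 (SE), with an adjusted p of 0.469. Without control replicates 6 and 8 it was 0.08 ± 0.31.

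**Figure D1:**
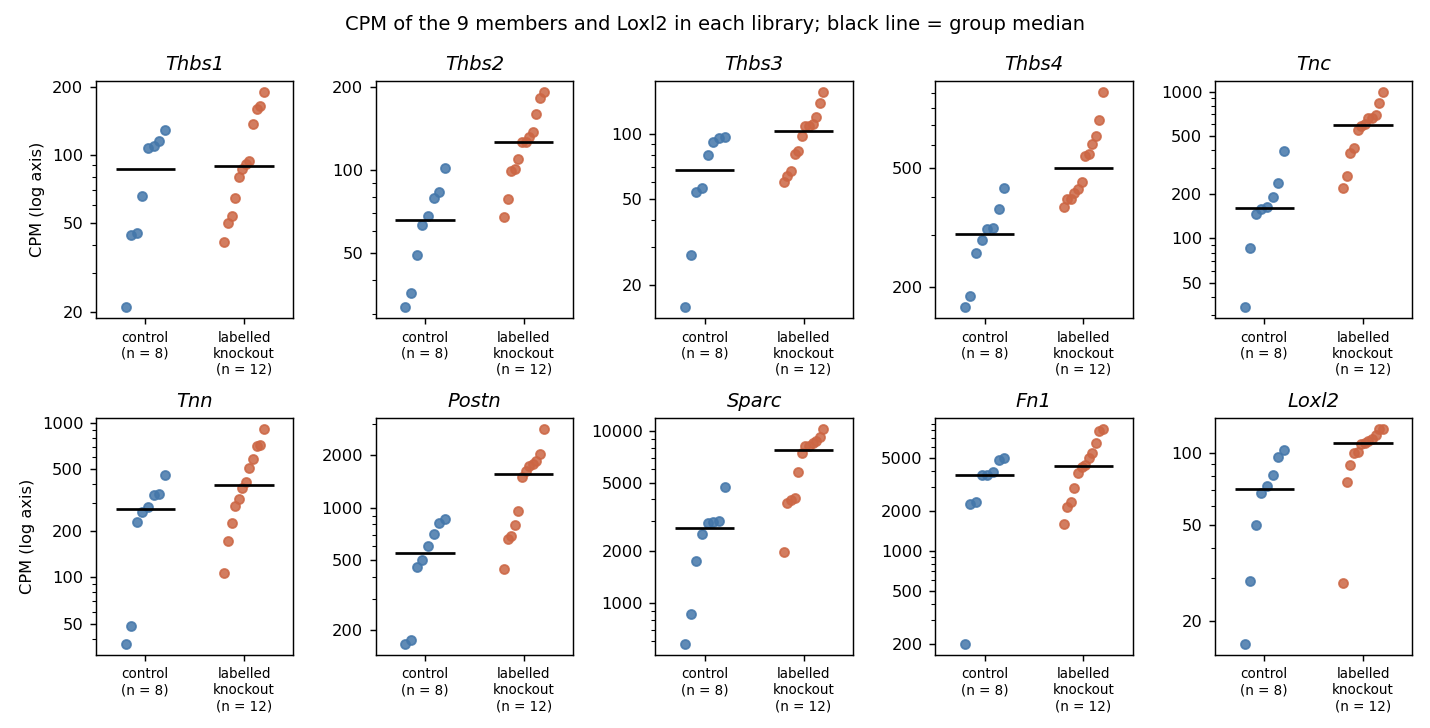
Expression of the 9 genes and *Loxl2* in each library, in CPM on a log axis, for the 8 control libraries (blue) and the 12 libraries labelled knockout (orange), with the group median as a black line. The low control points are mostly replicates 6 and 8; *Thbs4*, *Tnc* and *Thbs2* sit higher in every library labelled knockout than the control median, while the groups of *Thbs1* and *Fn1* lie largely on each other.

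Of the tenascins, *Tnc* passed the test. *Tnc* (chromosome 4, 63959785 to 64047015, minus strand) had the largest fitted fold change of the 9. Its level was 34, 161 and 393 CPM (lowest, median, highest) in control and 220, 593 and 999 CPM in the libraries labelled knockout. All 12 libraries labelled knockout were above the control median and 9 above the highest control library, replicate 5. *Tnc* rose 3.24-fold, by 1.70 ± 0.35 (SE) on the log2 scale (adjusted p = 0.00261), and by 1.40 ± 0.30 without control replicates 6 and 8 (adjusted p = 0.00981).

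*Tnn* (chromosome 1, 160085029 to 160153580, minus strand), the bone-associated tenascin, was at 37.1, 275 and 456 CPM in control and at 107, 395 and 915 CPM in the libraries labelled knockout. Its libraries were the most dispersed of the 9 within the libraries labelled knockout, with a coefficient of variation of 55.5%. Its log2 fold change of 0.82 ± 0.43 (SE) did not pass the test (adjusted p = 0.164). Within libraries, the log2 ratio of *Tnn* to *Tnc* was 0.38 ± 0.82 (SD) in control and -0.49 ± 0.83 (SD) in the libraries labelled knockout. Of the 12 libraries labelled knockout, 10 were not above the control median of this ratio (exact permutation p = 0.0346 over 125970 assignments, two-sided, 0.346 after Benjamini-Hochberg adjustment over 10 ratios), so unequal movement of the tenascins did not pass the correction.

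Periostin and SPARC transcripts rose as well. *Postn* (chromosome 3, 54361109 to 54391037, plus strand) ran from 166 through a median of 549 to 861 CPM in control, and from 447 through 1548 to 2830 CPM in the libraries labelled knockout. In 8 of 12 libraries labelled knockout it was above every control library. *Postn* rose 2.63-fold, by 1.39 ± 0.36 (SE) on the log2 scale (adjusted p = 0.00953), and by 1.09 ± 0.33 without control replicates 6 and 8 (adjusted p = 0.0406).

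*Sparc* (chromosome 11, 55394500 to 55423183, minus strand) ran from 578 through 2721 to 4735 CPM in control and from 1976 through 7780 to 10355 CPM in the libraries labelled knockout. One library labelled knockout, replicate 5, was below the control median, and 8 of 12 exceeded every control library. *Sparc* rose 2.77-fold, by 1.47 ± 0.35 (SE) on the log2 scale (adjusted p = 0.00665), and by 1.15 ± 0.30 without control replicates 6 and 8 (adjusted p = 0.0228).

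*Fn1* (chromosome 1, 71585520 to 71653200, minus strand), by contrast, did not pass the test. It was at 200, 3708 and 4956 CPM (lowest, median, highest) in control and at 1588, 4341 and 8275 CPM in the libraries labelled knockout. The lowest control value was that of replicate 8. In 4 of 12 libraries labelled knockout the level was not above the control median. The log2 fold change of *Fn1* was 0.49 ± 0.39 (SE), with an adjusted p of 0.382.

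Unequal movement among the members was also examined as ratios within libraries, which do not depend on scaling. None of 10 ratios passed the exact permutation test after adjustment. The log2 ratio of *Sparc* to *Fn1* was -0.29 ± 1.03 (SD) in control and 0.58 ± 1.26 (SD) in the libraries labelled knockout (adjusted p = 0.404), and that of *Thbs2* to *Thbs1* was -0.20 ± 0.59 and 0.42 ± 0.79 (adjusted p = 0.394). A difference between members that rose and members that did not pass the test was thus not shown. The ratio of *Thbs4* to *Thbs2* was 2.23 ± 0.29 (SD) in control and 2.10 ± 0.58 in the libraries labelled knockout (adjusted p = 0.644).

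Levels between genes were compared per kilobase of merged exons. Merged exons join all annotated transcripts of a gene, so they can exceed the length of the transcripts present. They came to 8702 bases for *Postn* (9 transcripts) and 3289 for *Thbs4* (2 transcripts), and the order below rests on such lengths. In CPM without length, *Postn* was above *Thbs4* in control, at means of 534 and 292. In control, *Sparc* was highest at a mean of 638 CPM per kb ± 353 (SD, n = 8), followed by *Fn1* at 277 ± 134, *Thbs4* at 88.7 ± 26.3, *Postn* at 61.3 ± 30.4, *Tnn* at 43.1 ± 25.0 and *Tnc* at 22.7 ± 13.8. Each gene from *Sparc* to *Tnn* was above the next in 7 of 8 control libraries, and *Tnc* was above *Thbs3* in 8 of 8. *Thbs3*, *Thbs1* and *Thbs2* ended the order at 13.4 ± 6.51, 13.1 ± 6.63 and 9.14 ± 3.46 CPM per kb, and *Thbs3* was above *Thbs1* in 3 of 8 libraries, so these neighbours did not differ beyond their spread. In the libraries labelled knockout *Sparc* stood at 1766 CPM per kb ± 703 (SD, n = 12), above *Fn1* (389 ± 187) in 12 of 12. *Thbs4* and *Postn* were level there by this measure, at 163 ± 49.5 and 161 ± 81.1 CPM per kb, with *Thbs4* above in 5 of 12. *Tnn* and *Tnc* were level too, at 76.3 ± 42.4 and 73.8 ± 29.2 CPM per kb, with *Tnn* above in 6 of 12. Of the summed transcripts of *Thbs1* to *Thbs4* per kb, *Thbs4* made up 72.1% ± 5.88 (SD, n = 8) in control. The share was 73.9% ± 6.36 (SD, n = 12) in the group labelled knockout, so these 4 genes together were mostly *Thbs4* in both groups.

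**Figure D2:**
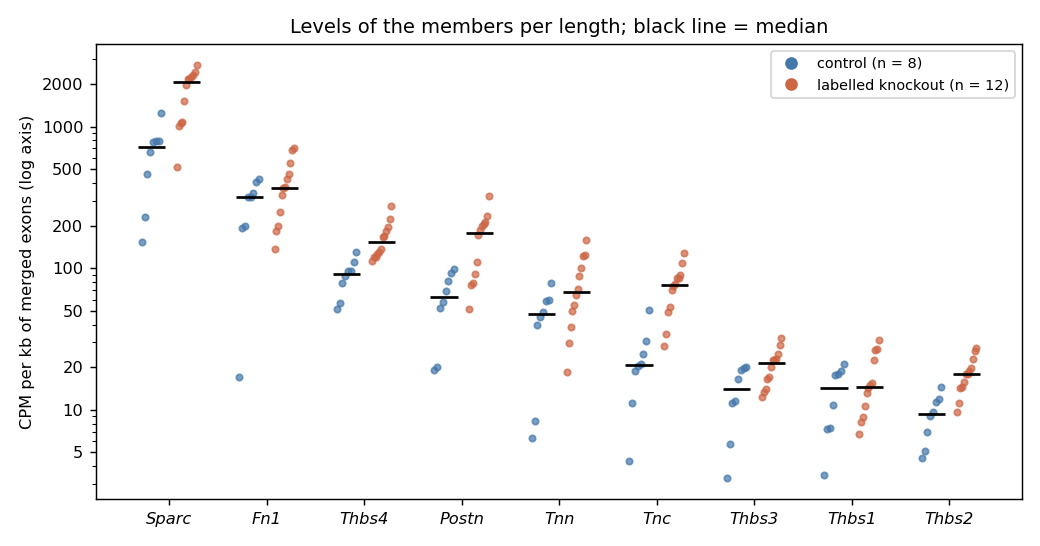
Levels of the 9 genes per kilobase of merged exons, in CPM per kb on a log axis, ordered by the control mean, with a point per library (8 control, blue; 12 labelled knockout, orange) and medians as black lines. *Sparc* and *Fn1* lead in both groups, and by this measure *Postn* and *Tnc* reach the levels of *Thbs4* and *Tnn* in the libraries labelled knockout. The order depends on the merged exon lengths, which join all annotated transcripts.

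Members were then compared among libraries of one group. In control, all 36 pairs of the 9 genes were positively correlated in log2 CPM, with a median Pearson r of 0.78 and a median Spearman rho of 0.55. Among the 9 genes, 8 were in their lowest 2 control libraries in replicate 6 (all but *Fn1*) and 9 in replicate 8. Without these replicates, the median r over the remaining 6 libraries was 0.12 and 20 of 36 pairs were positive. In the libraries labelled knockout, 22 of 36 pairs were positive, with a median r of 0.36 (n = 12). *Tnc* and *Sparc* were the closest pair there (r = 0.93, rho = 0.90), and *Sparc* also followed *Postn* (r = 0.89, rho = 0.79) and *Thbs1* (r = 0.84, rho = 0.92). *Thbs1* and *Fn1* ran in opposite directions (r = -0.75, rho = -0.75). These values are descriptions with no test, among libraries whose cell type markers differed widely within each group.

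**Figure D3:**
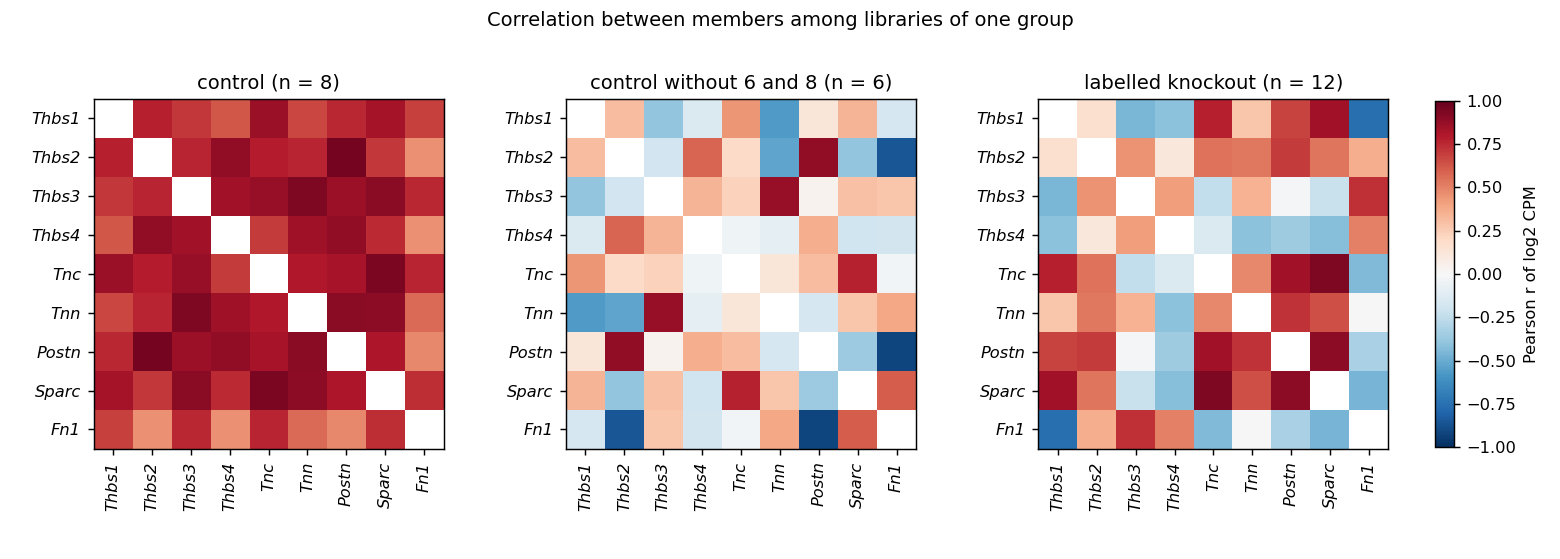
Pearson r of log2 CPM for each pair of the 9 genes among the 8 control libraries (left), the same without control replicates 6 and 8 (middle, n = 6) and the 12 libraries labelled knockout (right), on a color scale from -1 (blue) to 1 (red). The uniform red of the left panel, median 0.78, fades to a median of 0.12 in the middle panel, and in the right panel *Thbs1*, *Tnc*, *Postn* and *Sparc* form a red group from which *Fn1* and *Thbs4* stand apart.

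The genes most like each member were sought over the 20 libraries after the group means had been subtracted, as a description. *Tnc* was followed most closely by *Serpinh1* (r = 0.97), *Fkbp10* (0.96) and *P3h4* (0.955), which encode a collagen chaperone, a prolyl isomerase that acts on collagen and a partner of the collagen lysyl hydroxylase. *Postn* was followed by *Col12a1* (0.95), a fibril-associated collagen chain, *Fkbp14* (0.95) and *Copg1* (0.94), a coat protein of secretory vesicles. *Sparc* was followed by *Ptgis* (0.98), prostacyclin synthase, *Sdc3* (0.97) and *Alpl* (0.96), the alkaline phosphatase of mineralizing cells. *Tnn* was followed by *Wwp2* (0.95), *Angptl2* (0.94) and *Col27a1* (0.94), a fibrillar collagen chain of cartilage.

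Among the thrombospondins, *Thbs1* was followed by *Entpd3* (r = 0.93), *Exoc3l4* (0.93) and *Plppr3* (0.93), and *Thbs2* by *Fam114a1* (0.92), *Hif1a* (0.91), the hypoxia-inducible factor, and *Twsg1* (0.91), a BMP-binding protein. *Thbs3* was followed by *Col15a1* (0.92), a collagen chain of basement membranes, *Mtmr11* (0.92) and *Ltbp2* (0.91), a microfibril-associated protein. *Thbs4* had the loosest neighbors, *Nbl1* (0.86), a BMP antagonist, *Ltbp1* (0.79), which anchors latent TGF-β, and *Ankrd29* (0.79). *Fn1* was followed by *Anxa8* (0.95), *Stk32b* (0.94) and *Prelp* (0.92), a leucine-rich proteoglycan of cartilage.

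Relations of the members to *Loxl2* itself were tested within each group, as 18 relations. Among control libraries, *Thbs3* followed *Loxl2* (r = 0.99, exact permutation p = 2.48e-05, which is the smallest that 40320 pairings can give, adjusted p = 0.000446; rho = 1.0, adjusted p = 0.000893), and r was 0.90 once the 2 libraries with the most extreme *Loxl2* (by distance from the median) were left out. In control these were replicates 6 and 8, the libraries with low chondrocyte, osteoblast and tendon markers. *Tnn* followed *Loxl2* too (r = 0.93, adjusted exact permutation p = 0.022; rho = 0.95, adjusted p = 0.0103), with r unchanged at 0.93 without those libraries. In control *Thbs3* and *Tnn* also ran with the chondrocyte list, at r = 0.92 each (no test). This was not particular to them, since every member did so there, from 0.75 (*Thbs4*) to 0.94 (*Sparc*). Nor was it particular to that list. *Thbs3* and *Tnn* were at 0.92 and 0.87 with the tendon and fibroblast list, and at 0.89 and 0.83 with the osteoblast and osteocyte list. These list values include control replicates 6 and 8, and were not tested without them. *Tnc*, *Postn* and *Sparc* passed by r alone (adjusted exact permutation p = 0.022, 0.0442 and 0.022), and fell to r = 0.40, 0.14 and 0.35 without those libraries, so these relations rest on them. Among the libraries labelled knockout, only *Thbs2* passed, by r (0.65, adjusted permutation p = 0.0442, and 0.53 without the most extreme libraries) and not by rho (0.55, adjusted p = 0.301). *Thbs3* and *Tnn* had r = -0.04 each there, and 0.37 and 0.39 without the most extreme libraries, and the difference from control was not tested.

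Cell type markers moved between the groups along with the members. The osteoblast and osteocyte list rose from a mean log2 CPM of 6.09 to 7.65 (exact permutation p = 0.00526, adjusted p = 0.016 over 15 measures), with 7 of its 12 genes called higher and summed levels of 2167 to 20963 CPM in control against 6978 to 60044 CPM in the libraries labelled knockout. The osteoclast list rose from 3.83 to 6.0 (adjusted p = 0.00226), with all 12 genes called higher and summed levels of 241 to 1635 against 767 to 8536 CPM. The tendon and fibroblast list rose from 5.33 to 5.79 (adjusted p = 0.0357), with 3 of 12 genes higher and summed levels of 566 to 2644 against 1737 to 3835 CPM. The skeletal muscle list went from 11.2 to 10.4 (adjusted p = 0.0638), with 5 of 12 genes lower. The chondrocyte list, the cells in which Cre is driven, was at 2.71 ± 1.56 (SD) and 3.30 ± 1.14 (adjusted p = 0.528), with 2 of its 9 tested genes higher and summed levels of 40.2 to 1790 against 150 to 3886 CPM. Macrophage and mast cell lists rose as well (adjusted p = 0.00322 and 0.01), with 9 of 11 and 6 of 8 tested genes higher. Their summed levels were 97 to 384 CPM in control against 255 to 1044 CPM, and 14 to 33.5 against 15.3 to 215 CPM.

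With group means subtracted, *Sparc* ran with the osteoblast and osteocyte list at r = 0.95, *Tnc* at 0.89, *Thbs1* at 0.85 and *Postn* at 0.81 (20 libraries, no test). With the chondrocyte list the values of these genes were 0.91 (*Sparc*), 0.80 (*Tnc*), 0.74 (*Thbs1*) and 0.81 (*Postn*). With the osteoclast list they were 0.69, 0.75, 0.75 and 0.48 in the same order, and with the skeletal muscle list -0.65, -0.76, -0.78 and -0.6. *Tnn* was nearest to the chondrocyte list (0.87). *Thbs3*, *Thbs4* and *Fn1* were nearest to the tendon and fibroblast list (0.78, 0.76 and 0.71), and *Thbs2* was near 3 lists at once, at 0.63 with the tendon and fibroblast, 0.60 with the chondrocyte and 0.56 with the osteoblast and osteocyte list. The value of *Thbs4* with the osteoblast and osteocyte list, 0.05, joins 0.81 in control and -0.56 in the group labelled knockout.

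The fold changes were fitted again with such a list as a covariate. With the osteoblast and osteocyte list, *Tnc* stayed higher at 0.82 on the log2 scale and *Thbs4* at 0.89, whereas *Sparc* was at 0.43 (adjusted p = 0.167), *Postn* at 0.41 (adjusted p = 0.48) and *Thbs2* at 0.61 (adjusted p = 0.154). With the skeletal muscle list, *Tnc* and *Thbs4* again were the members that passed. With the tendon and fibroblast list, *Tnc*, *Thbs4* and *Sparc* passed, and *Thbs4* went to 0.53 (edgeR adjusted p = 0.0441). With the osteoclast list no gene of the whole table passed by edgeR (1289 had an unadjusted p under 0.05), and *Thbs4* was at 0.83, *Thbs2* at 0.73 and *Tnc* at 0.49. With the chondrocyte list all 5 calls were kept. With group means subtracted, *Thbs4* had r = 0.05 with the osteoblast and chondrocyte lists, 0.08 with the osteoclast list and 0.02 with the muscle list. These covariates could therefore hardly move its fold change. With each of them r had opposite signs in the groups, which a fit with a common slope does not describe. Since the osteoblast, osteoclast and tendon lists differed between the groups, such a fit removes part of the group difference with the list, and the part of cell composition in these results was not tested beyond it.

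**Figure D4:**
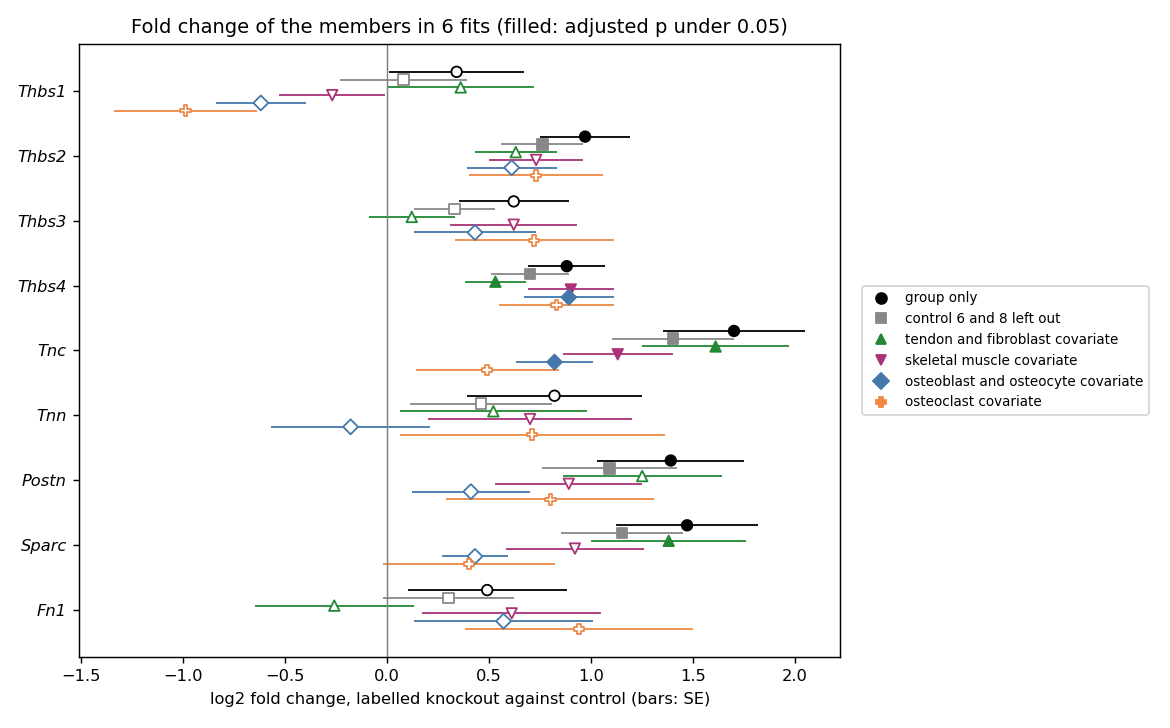
Log2 fold change of each gene, libraries labelled knockout against control, with bars of 1 SE, in 6 fits: group only (black circles), control replicates 6 and 8 left out (gray squares), and each of the tendon and fibroblast (green), skeletal muscle (purple), osteoblast and osteocyte (blue) and osteoclast (orange) lists as covariate; filled points passed an adjusted p of 0.05. *Thbs4* stays between 0.53 and 0.90 in all 6, *Tnc* falls from 1.70 to 0.49, and *Thbs1* turns negative, to -0.99, with the osteoclast list. The muscle, osteoblast and osteoclast lists had almost no relation to *Thbs4* with group means subtracted, so these covariates could hardly move it.

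Genes around the members were counted from lists of related glycoproteins, receptors and matrix partners, also chosen with earlier results of these data known. Of all 15984 tested genes, 23.0% were called and 12.0% were called higher. Of 26 related matricellular and matrix glycoproteins, 23 were tested (*Tnr*, *Spock3* and *Ccn6* were not), 8 rose (34.8%) and none fell, with a median log2 fold change of 0.31. *Ccn5*, a member of the CCN family of matrix signalling proteins, rose by 2.49 ± 0.49 (SE) on the log2 scale, from 12.7 ± 8.83 CPM (SD) in control to 70.8 ± 44.1 (adjusted p = 0.00233). *Ccn1*, an integrin-binding member of that family, rose by 1.01 ± 0.25 (adjusted p = 0.00756). *Fstl1*, a SPARC-related secreted protein, rose by 1.07 ± 0.28, *Ecm1* by 1.11 ± 0.31 and *Spon1*, which carries thrombospondin repeats, by 1.31 ± 0.40. The most abundant relatives did not pass: *Spp1* (osteopontin) was at 781 ± 434 CPM (SD) in control and 1551 ± 805 in the libraries labelled knockout (adjusted p = 0.0854), and *Comp*, the fifth thrombospondin, at 896 ± 602 and 995 ± 578 CPM (adjusted p = 0.865). Without control replicates 6 and 8, 3 relatives were called, and between 5 and 9 when single libraries were left out, with 5 when control replicate 6, 7 or 8 was. Over all genes, 1703 of 16551 tested were called without control replicates 6 and 8, and 2551 to 4181 without single libraries.

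Of 20 receptors of members, all tested, 9 rose and 3 fell (60.0% called, beside 23.0% of all tested genes), with a median log2 fold change of 0.38. *Itgb3*, the β3 integrin chain that binds many members and also marks osteoclasts, rose by 2.33 ± 0.45 (SE) on the log2 scale (adjusted p = 0.00199). *Itga5*, the α chain of the classical fibronectin receptor, rose by 0.86 ± 0.19 (adjusted p = 0.00397) and its partner *Itgb1* by 0.34 ± 0.09 (adjusted p = 0.0101). *Sdc1*, a heparan sulfate co-receptor, rose by 1.31 ± 0.32 (adjusted p = 0.00732), and *Lrp1*, which clears thrombospondins from the cell surface, by 0.74 ± 0.21 (adjusted p = 0.0158). *Itgb6*, an integrin chain of epithelium that binds fibronectin and latent TGF-β, fell by 0.86 (SE 0.13, adjusted p = 0.00104), from 42.3 ± 9.76 to 23.4 ± 4.56 CPM (SD). *Cacna2d1*, a calcium channel subunit abundant in muscle and known as a thrombospondin receptor in neurons, fell from 253 ± 62.4 to 147 ± 31.0 CPM (SD) (adjusted p = 0.00128), and 0 of 12 libraries labelled knockout were above the control median. *Cd36*, the thrombospondin receptor of vessels and fat, was the third that fell. Without control replicates 6 and 8, 6 receptors were called, beside 1703 of all 16551 tested genes.

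Of 19 matrix partners, 16 rose (84.2%, beside 12.0% of all tested genes) and none fell, with a median log2 fold change of 1.17. *Col1a1* and *Col1a2*, the type I collagen chains that SPARC and periostin bind, rose by 2.50 ± 0.45 (SE) and 2.19 ± 0.42 on the log2 scale (adjusted p = 0.00144 and 0.00204). *Lox*, the lysyl oxidase that periostin and fibronectin help to activate, rose by 1.96 ± 0.35 (adjusted p = 0.00144) and *Loxl1* by 1.09 ± 0.19 (adjusted p = 0.00135). The type V collagen chains *Col5a1* and *Col5a2* rose by 1.59 ± 0.27 and 1.60 ± 0.29, and *Tgfb1*, whose product thrombospondin 1 can activate, by 1.06 ± 0.18. Both type I collagen genes are also on the osteoblast list. *Tgm2*, *Dcn* and *Fmod* did not pass the test.

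**Figure D5:**
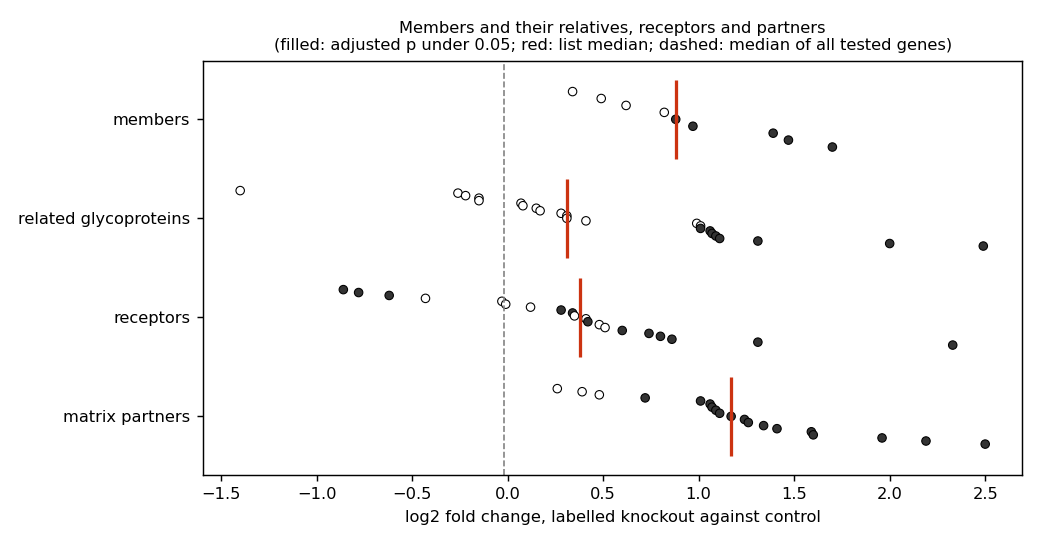
Log2 fold change, libraries labelled knockout against control, of the 9 members and of the tested related glycoproteins (23), receptors (20) and matrix partners (19), with a point per gene, filled where the adjusted p was under 0.05, the list median in red and the median of all tested genes (-0.018) dashed. The matrix partners lie highest as a list (median 1.17), the members next (0.88), and filled points left of 0 appear among the receptors alone.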

How the data were processed

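RNA-seq was performed on 20 condylar head libraries (8 Control, 12 LOXL2_KO, grouped by their titles). The authors deposited raw read counts per gene, made with featureCounts from trimmed paired-end reads after mapping to mm10. The aligner, the annotation release, strand use and treatment of multi-mapping reads are not given in the sources used here. Names, coordinates and merged exon lengths came from GENCODE M21 (GRCm38), which matched 54495 of 54532 identifiers. Counts were tested on the whole table with edgeR 4.0.16 in R 4.3.3 (filterByExpr, TMM scaling, quasi-likelihood F-test, two-sided, Benjamini-Hochberg adjustment over 15984 genes, threshold 0.05), and DESeq2 1.42.0, the tool of the study, was an alternative. SE was derived from the F statistic. CPM used scaled library sizes and log2 CPM a prior count of 2. Single values were compared by exact permutation over 125970 assignments of libraries to groups, and relations to *Loxl2* by all 40320 pairings in control or 100000 resamples in the 12 other libraries. The permutations were run with NumPy 2.4.6, and ranks were taken with SciPy 1.17.1. Chi-square statistics over the 190 pairs of libraries were at least 33.7 per degree of freedom, which is far above sampling noise.

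The members, gene lists, marker lists and tests were chosen with earlier results of these data known. Named genes are the members, *Loxl2*, the 5 genes with the smallest p and the 2 with the highest mean CPM of each list, and the 3 genes most correlated with each member, while *Cd36* and the genes of a list that did not pass or were not tested were named after their values were seen. Marker lists of platelets, neutrophils, erythroid, endothelial, Schwann and fat cells differed by adjusted p = 0.806, 0.0806, 0.105, 0.806, 0.954 and 0.629. Y-linked transcripts were found in 3 of 8 control libraries and 6 of 12 labelled knockout, where the methods give equal numbers of males and females in each group. The mitochondrial share was 17.8% ± 2.78 (SD) in control and 13.6% ± 3.03 (adjusted exact permutation p = 0.016). Replicate numbers occur in both groups, but the deviations of same-numbered libraries correlated at -0.36 to 0.17, 2 of 8 pairs over 0.1, so they were not treated as pairs.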

Additional observations from a re-analysis of the deposited data

Results flagged for a closer look

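*Fn1* in control replicate 8 lay far below the other control libraries, at 7.64 on the log2 CPM scale, or 200 CPM. Its gap to the nearest control library was 0.755 of the range of the group, above Dixon's 95% critical value for 8 libraries. The rule was applied to 20 sets of values, of which chance flags about 1 in 20. Without this library the log2 fold change of *Fn1* was 0.32 ± 0.29 (SE, adjusted p = 0.483).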

How the results depend on the processing

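The 5 calls among the members were kept under every alternative scaling, filter, gene set and dispersion, under the DESeq2 Wald test and with a Y chromosome or chondrocyte list as covariate. Members called, all higher, fell to 3 with the replicate block over the 16 libraries numbered 1 to 8 (*Postn* 1.20, adjusted p = 0.0721; *Sparc* 1.5, adjusted p = 0.0963; 5 in the same libraries without it; no library correlated best with its own number), to 2 with the muscle list, 0 with the osteoclast list, 2 with the osteoblast list and 3 with the tendon list. The tendon and chondrocyte covariates and the omission of control replicates 6 and 8 were chosen after seeing the data. Calls over all genes, 3673, became 1786 with the block, 1002 (muscle), 0 (osteoclast), 263 (osteoblast), 1011 (tendon) and 1703 without control replicates 6 and 8, and 2551 to 4181 without single libraries. Relatives called, 8, became 5, 4, 0, 2, 3 and 3 in the same order (5 to 9 without single libraries). Receptors called, 12, became 4 (muscle), 0 (osteoclast), 2 (osteoblast), 5 (tendon) and 6 without control replicates 6 and 8. Matrix partners called, 16, became 0 (osteoclast), 10 (osteoblast) and 10 (tendon). Directions turned for *Thbs1* with the muscle (-0.27), osteoclast (-0.99) and osteoblast lists (-0.62), *Tnn* with the osteoblast list (-0.18), *Fn1* with the tendon list (-0.26) and the ratio of *Thbs4* to *Thbs2* in the replicate block (0.07), none past the threshold. The ratio of *Thbs4* to *Thbs3* ran from -0.00453 to 0.28 without single libraries. *Loxl2* passed without knockout replicate 12 (0.74, adjusted p = 0.0313). Library totals alone moved the median of all genes from -0.018 to 0.12 and the split from 1918 higher and 1755 lower to 2188 and 849. The causes of these changes were not tested.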

Other observations

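Ranked per length among the 15979 tested genes with an exon length, *Sparc* was higher than 99.6% of genes in control and 99.9% in the libraries labelled knockout, and *Fn1* higher than 99.1% and 99.5%. *Tnc* moved from 89.4% to 96.7%, and *Thbs2* from 75.3% to 86.7%. Of the 9 genes, 5 had their lowest level among the libraries labelled knockout in replicate 5 (*Thbs1*, *Tnc*, *Tnn*, *Postn* and *Sparc*), where the chondrocyte list was at 0.97 log2 CPM, the lowest of that group. The osteoblast and osteocyte list (5.17) and the osteoclast list (4.32) were also lowest of that group in replicate 5. *Thbs4*, *Thbs3* and *Fn1* were highest in replicate 4 of that group, where the tendon and fibroblast list was highest, at 6.49.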
